A study of Mus musculus with 800 samples.

Results

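The V1R genes of mouse chromosome 13 form 1 cluster of vomeronasal receptor genes, and 33 of them had a row of their own among the 28963 genes of the count table. They were taken by symbol, from Vmn1r188 to Vmn1r223 in number, with no pseudogene suffix. V1R receptors are G protein-coupled receptors of the apical layer of the vomeronasal organ, where they signal through the G protein subunit encoded by Gnai2. A mature neuron of that layer is thought to use mainly a single V1R gene, and neurons that share a receptor send their axons to shared glomeruli of the accessory olfactory bulb. V1R genes lie in clusters of near copies that grew by local duplication, so reads of close paralogs can be hard to tell apart.

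The cells came from the vomeronasal epithelium of 7 male mice of the strain B6;129P2-Omptm3Mom/MomJ and the genotype OMP(GFP/wt), aged 66 days by the protocol and 9 weeks by the age label. In this line GFP is expressed from the locus of Omp, the marker of mature sensory neurons, so the sort took cells in which the Omp promoter was in use. Tissue was pooled from 3 and from 4 mice, cells positive for GFP and Hoechst and negative for DRAQ7 were sorted, and both pools were loaded onto the same C1 chip of 800 chambers, a microfluidic device that captures and lyses cells one by one, for 3′ end sequencing with 5-base unique molecular identifiers. There was no treatment and no untreated group. The labels divide the chambers by their content at capture: 49.2% held a single cell, 40.6% were empty, 63 chambers held multiple cells and 18 a putative single cell.

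Chambers are named here by this content and by the row (1 to 40) and number (1 to 20) that their titles carry. Because the titles do not say which pool a chamber came from, there is no replicate of any of these groups and no test between them was made. Total counts ranged from 6521 to 260930 in single-cell chambers, with a median of 149647.5, and from 4501 to 319287 in empty chambers, with a median of 20731. The median total was 181883 in multiple-cell and 118238 in putative single-cell chambers. The labelled cell type had its markers: the median single-cell chamber held 87 counts of Omp, 94.5 of Gnai2 and 2 of Gnao1, the G protein subunit of the basal layer. The label "empty" did not match the depth of 63 of the chambers that carry it, which had at least 50000 counts each, and the median empty chamber still held 21 counts of Omp and 22 of Gnai2. The main results on empty chambers are therefore given with and without these 63.

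All 33 genes are annotated as protein coding in GENCODE vM21 on GRCm38, between chr13:22084440 and chr13:23253906, a span of 1169.5 kb with 18 genes on the plus and 15 on the minus strand. Their coding sequences are 888 to 1152 bases long. By their older names 20 belong to the V1rh and 8 to the V1ri family, and Vmn1r194, Vmn1r204, Vmn1r209, Vmn1r221 and Vmn1r223 have no older name of this kind. Vmn1r216 on the plus strand (chr13:23096976-23108732) and Vmn1r217 on the minus strand (chr13:23105100-23118226) overlap, so counts of this pair are uncertain where the counting did not use strand.

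The sequences printed here are from the GRCm38 genome and show how near the copies are for the pairs most often found in the same chamber. Each is a stretch of coding exon, written 5′ to 3′ on the gene's strand, and capitals mark the bases that differ between the 2 genes. Vmn1r188 (chr13:22088094-22088194, plus strand) and Vmn1r221 (chr13:23217589-23217689, plus strand) lie 1129.7 kb apart. They share an exact coding run of 71 bases inside this stretch, in which 2 bases differ.
Vmn1r188: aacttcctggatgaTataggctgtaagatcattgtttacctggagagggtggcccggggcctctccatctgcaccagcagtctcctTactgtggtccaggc
Vmn1r221: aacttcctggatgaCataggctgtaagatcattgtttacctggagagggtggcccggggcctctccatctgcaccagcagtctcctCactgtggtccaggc
Vmn1r193 (chr13:22218970-22219100, minus strand) and Vmn1r202 (chr13:22501446-22501576, minus strand) differ at 8 bases, all outside 1 long exact run.
Vmn1r193: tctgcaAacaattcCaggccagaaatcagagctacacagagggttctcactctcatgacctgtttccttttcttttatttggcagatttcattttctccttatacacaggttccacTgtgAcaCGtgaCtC
Vmn1r202: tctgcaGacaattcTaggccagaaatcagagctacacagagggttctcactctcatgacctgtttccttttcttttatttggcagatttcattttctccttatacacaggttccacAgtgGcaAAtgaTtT
Vmn1r210 (chr13:22827960-22828073, minus strand) and Vmn1r213 (chr13:23011548-23011661, plus strand) share a run of 84 bases, and 7 bases differ around it.
Vmn1r210: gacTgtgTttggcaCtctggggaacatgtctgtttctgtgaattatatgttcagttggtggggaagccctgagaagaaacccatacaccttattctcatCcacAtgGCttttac
Vmn1r213: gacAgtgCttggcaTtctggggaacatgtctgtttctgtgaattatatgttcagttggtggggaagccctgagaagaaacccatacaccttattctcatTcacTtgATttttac
Vmn1r192 (chr13:22187405-22187523, minus strand) and Vmn1r201 (chr13:22475143-22475261, plus strand) share a run of 89 bases within coding positions 526 to 644, and 4 bases differ.
Vmn1r192: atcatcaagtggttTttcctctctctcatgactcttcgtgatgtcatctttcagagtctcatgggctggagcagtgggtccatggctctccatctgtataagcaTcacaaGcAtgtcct
Vmn1r201: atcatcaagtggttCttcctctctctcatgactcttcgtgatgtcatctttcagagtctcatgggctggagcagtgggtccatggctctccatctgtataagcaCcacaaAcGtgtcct
The last 90 coding bases (847 to 936) of Vmn1r206 (chr13:22620100-22620189, minus strand) and Vmn1r209 (chr13:22805583-22805672, minus strand) differ at 1 base.
Vmn1r206: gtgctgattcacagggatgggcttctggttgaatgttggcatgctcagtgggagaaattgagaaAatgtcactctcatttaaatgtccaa
Vmn1r209: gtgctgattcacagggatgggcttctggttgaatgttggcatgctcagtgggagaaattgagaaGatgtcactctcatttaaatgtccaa
For contrast, the last 90 coding bases of Vmn1r196 (chr13:22294006-22294095, plus strand) and Vmn1r198 (chr13:22355156-22355245, plus strand) differ at 38 bases, and no exact run there is longer than 13. These are the genes with the highest counts of the V1rh and the V1ri family.
Vmn1r196: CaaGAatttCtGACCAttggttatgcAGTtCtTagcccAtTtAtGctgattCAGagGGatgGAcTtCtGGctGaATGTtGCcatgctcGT
Vmn1r198: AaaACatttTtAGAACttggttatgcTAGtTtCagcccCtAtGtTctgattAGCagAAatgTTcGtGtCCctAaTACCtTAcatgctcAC

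Every one of the 33 genes had at least 1 count in some single-cell chamber, but most counts sat in few chambers. The median over the single-cell chambers was 0 counts for each gene, as it was over the empty chambers. Of the 33 genes, 29 (87.9%) reached 10 counts in at least 1 single-cell chamber. This was so for 83.2% of all functional V1R genes (those with neither a pseudogene suffix nor a pseudogene annotation). At least 50 counts were reached by 22 of the 33, or 66.7%, beside 63.5%. The share of the cluster's genes that were detected at these levels was thus close to that of V1R genes at large.

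**Figure D1:**
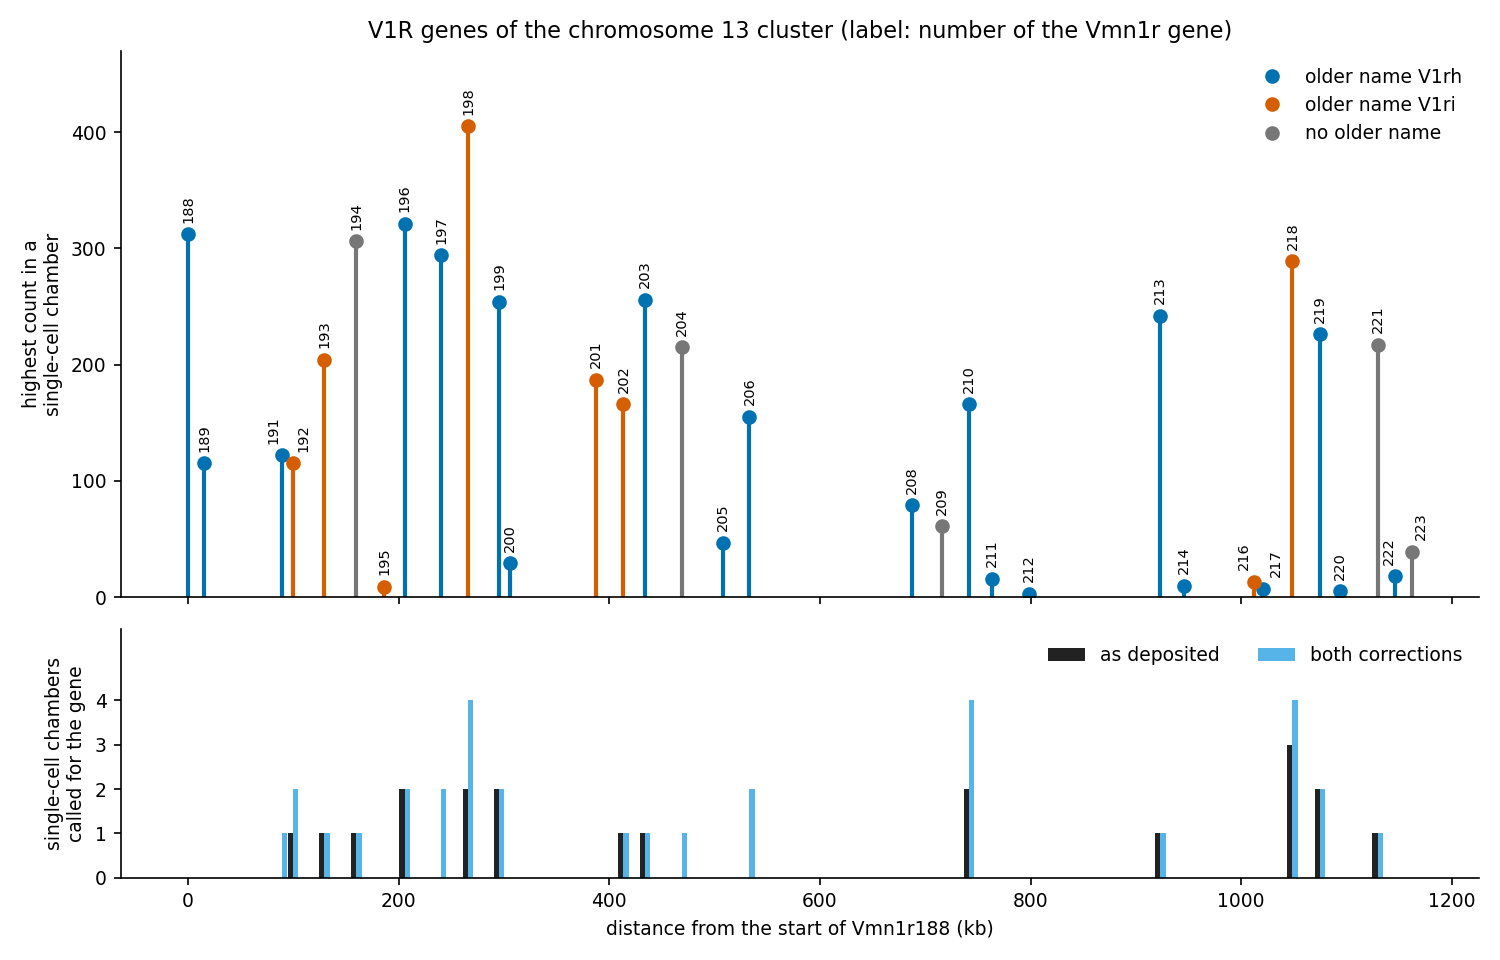
Position of the 33 genes along the cluster (distance in kb from the start of Vmn1r188) against the highest count in a single-cell chamber (upper panel, coloured by older family name) and the number of single-cell chambers called for the gene (lower panel, black as deposited and blue with both corrections). The 4 genes under 10 counts lie among high ones, with Vmn1r198 highest at 405 counts and Vmn1r212 lowest at 3.

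Summed over the single-cell chambers, the genes held 14715 counts, and the 3 with most held 40.4% of them. Vmn1r198 (V1ri3, chr13:22350364-22360301) led with 2486 counts, followed by Vmn1r218 (V1ri5, chr13:23133155-23146112) with 2109 and Vmn1r196 (V1rh19, chr13:22289920-22298360) with 1354. Next were Vmn1r221 with 1002, Vmn1r197 with 912, Vmn1r210 with 787, Vmn1r188 with 777, Vmn1r199 with 600, Vmn1r213 with 570 and Vmn1r219 with 467, and the sum fell to 6 for Vmn1r212. These are counts of 3′ tags, not scaled to length, and single chambers hold much of each sum. Divided by the length of the longest annotated transcript, 7 of these 10 genes were still among the highest 10, and Vmn1r194, whose annotated transcript is 891 bases, moved to the top.

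The highest values per chamber show the level a gene reached in these cells. They are given from here on as counts per 10000 counts of the chamber, over all its genes, for chambers with at least 10 counts of the gene. Vmn1r198 had 20.6 per 10000 in the single-cell chamber of row 10, number 1, 19.8 in that of row 13, number 13, and 5.77 in the third highest. Vmn1r196 had 28.1 in row 25, number 7, 22.3 in row 25, number 12, and then 8.6. For both genes a pair of single-cell chambers stood far above the rest. Vmn1r188 (chr13:22084440-22095916) had 30.2 per 10000 in row 37, number 13, the highest level of the 33 genes in a single-cell chamber, then 5.94 and 4.95, but no single-cell chamber was called for it, as described with its paralog Vmn1r221. Vmn1r194 had 21.6 per 10000 in row 27, number 1, and 0.818 in the next. Vmn1r203 had 17.2 in row 38, number 7, and under 10 counts in every other, so that each of these was high in only 1 single-cell chamber.

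For 4 genes no single-cell chamber reached 10 counts, which allows a share of up to about 0.761%, taken as 3 divided by the number of chambers. They were Vmn1r195 (highest count 9), Vmn1r212 (3), Vmn1r217 (7) and Vmn1r220 (5). Of these, Vmn1r195 reached 55 counts (2.86 per 10000) in a multiple-cell chamber, Vmn1r217 reached 6.92 and 6.28 per 10000 in 2 multiple-cell chambers, and Vmn1r220 held 49% of the receptor counts in an empty chamber whose total was 7010. In all, 5 of the 33 genes had a higher count in a multiple-cell chamber than in any single-cell chamber, and 4 had a higher count in an empty one. The widest of these gaps beside those of the 4 were that of Vmn1r216, with 9.64 per 10000 in the multiple-cell chamber of row 17, number 9 against at most 0.862 in single-cell chambers, and that of Vmn1r223, with 10.2 in the empty chamber of row 32, number 9 against at most 2.06. That empty chamber held 235975 counts in total, 87 of Gnai2 and 79 of Omp.

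**Figure D2:**
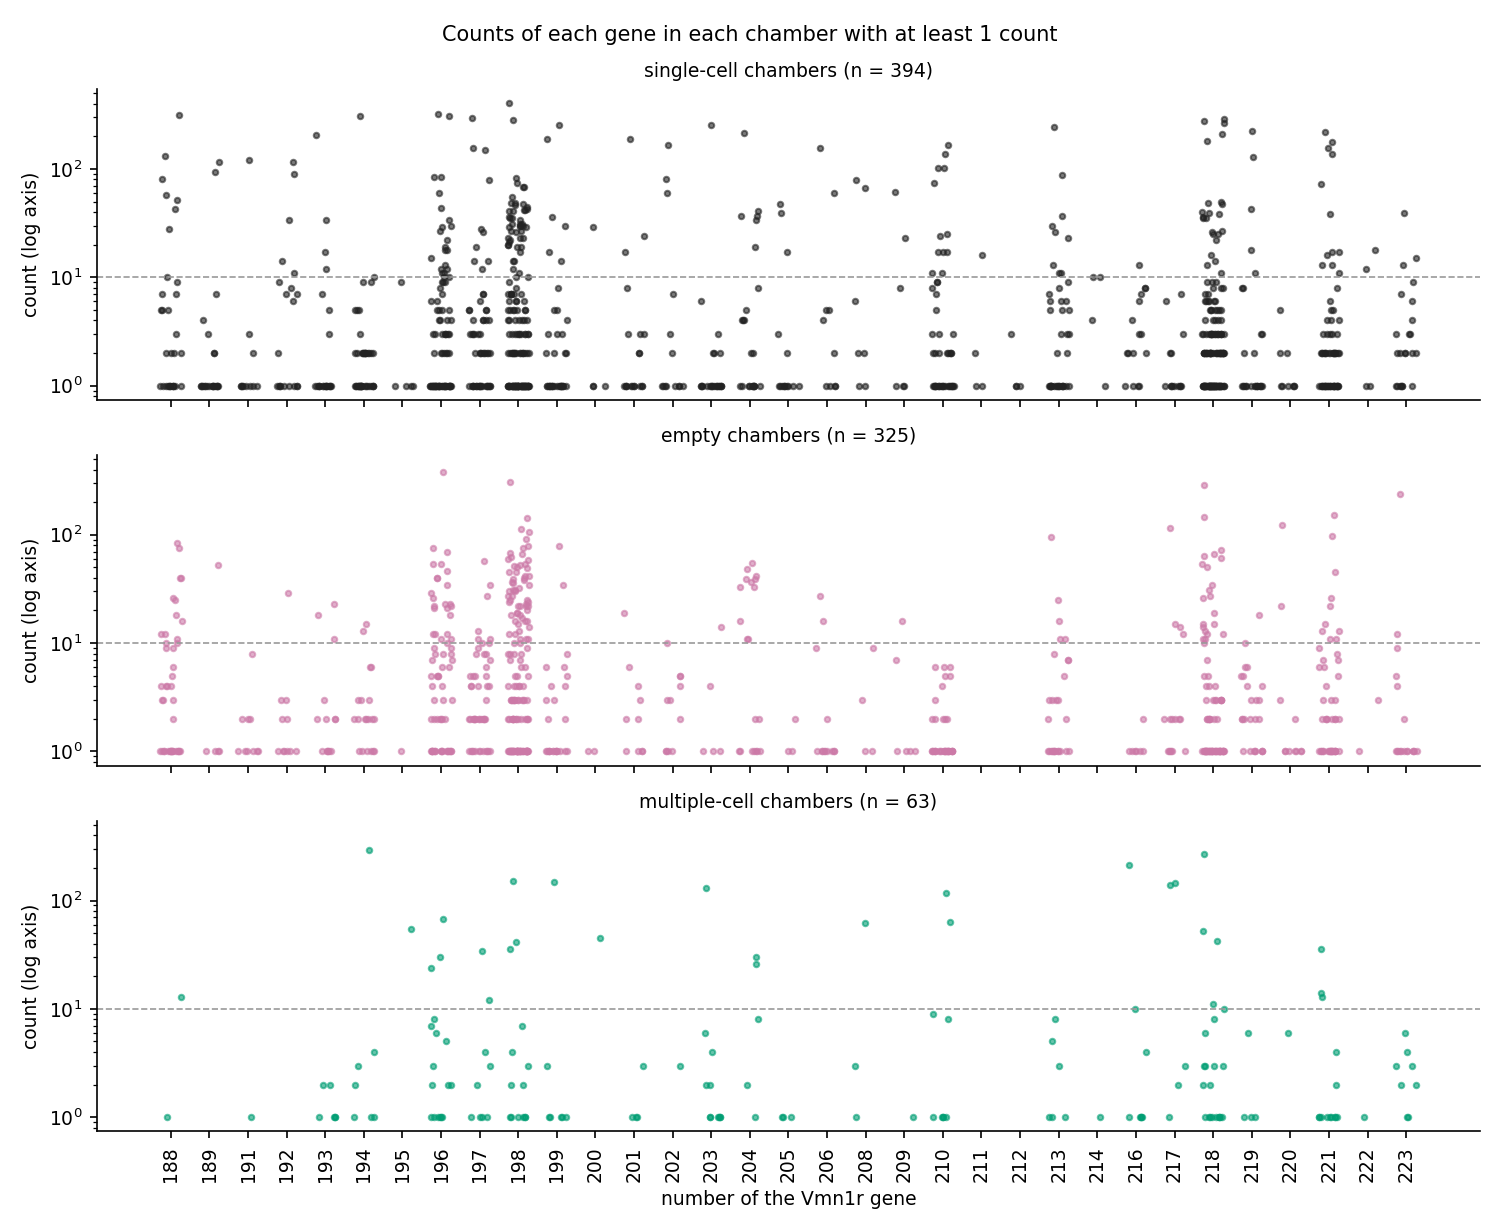
Count of each of the 33 genes (horizontal axis, Vmn1r number) in every single-cell (top), empty (middle) and multiple-cell (bottom) chamber with at least 1 count, on a log axis, with a dashed line at 10 counts. Vmn1r196, Vmn1r198 and Vmn1r218 have dense columns of low values in single-cell and empty chambers alike, and for most other genes 1 or a few points stand high above a sparse base.

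Empty chambers carried the same genes. A gene of the cluster had at least 10 counts in 36.8% of the single-cell chambers (exact 95% Clopper-Pearson interval 32 to 41.8) and in 40.9% of the empty chambers (35.5 to 46.5), at median totals of 149647.5 and 20731. The same held for 21 of 63 multiple-cell chambers (33.3%, 22 to 46.3) and 8 of 18 putative single-cell chambers (44.4%, 21.5 to 69.2). Intervals here and elsewhere cover counting error only. The share at 10 counts in single-cell chambers was not above that in empty ones, so a count of 10 does not set these cells apart from the background. At 50 counts the shares were 13.7% (10.5 to 17.5, 54 chambers) and 12% (8.67 to 16, 39 chambers), which overlap as well. Without the 63 empty chambers of at least 50000 counts, the shares of the other empty ones were 40.5% at 10 counts (34.5 to 46.7) and 10.7% at 50 (7.22 to 15.1).

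Scaled to depth, the 33 genes made up 2.46 of every 10000 counts in single-cell chambers, 6.22 in empty, 2.37 in multiple-cell and 4.80 in putative single-cell chambers. After each chamber was thinned to 10000 counts, at least 1 count of the cluster was present in 48.3% of the single-cell chambers (1 shallower chamber left out) and in 74.7% of the empty ones (33 left out). The cluster's share of all receptor counts was more alike, with 10.3% in single-cell, 12.7% in empty, 10.2% in multiple-cell and 12.3% in putative single-cell chambers. Without the 63 deep empty chambers the values of the empty ones were 10.6 per 10000, 82.1% after thinning and 13.4% of receptor counts. By gene, the summed counts of the 33 genes in single-cell and in empty chambers had a Spearman rho of 0.787, or 0.835 without the 63, a description over genes that share the same libraries. Vmn1r198 had more counts in all empty chambers (2796) than in single-cell chambers (2486), but fewer without the 63 (2252). In these plain sums, fewer counts in empty chambers were found for 29 of the 33 genes, and for 32 without the 63. The sums are not scaled to depth, and the single-cell chambers were deeper. Per 10000 counts the direction differed between genes. Vmn1r198 had 0.415 in single-cell and 2.06 in empty chambers, whereas Vmn1r210 had 0.131 and 0.0502.

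Low counts followed the titles of the chambers. For the 19 genes with at least 150 counts in some chamber, which gave 39 such source chambers (28 of them single-cell, 5 empty), the other chambers were sorted by whether they shared a title row or number with a source. The gene was at 10 counts or more in 14% of the 1342 cases that shared only the number and in 44 of 582 (7.56%) that shared only the row. It was so in 18 of 59 (30.5%) that shared both and in 100 of 13178 (0.759%) that shared neither. Vmn1r196 was at 10 counts in 36% of the chambers that shared only the number of a source and in 0.795% of those that shared neither. For Vmn1r198 these values were 33.9% and 4.81%, and for Vmn1r188 they were 33.3% and 1.08%. Vmn1r204 showed the row instead: with 21.2 per 10000 in the single-cell chamber of row 12, number 5, it was at 10 counts in 16 of the 19 other chambers of that row (84.2%). The pattern was uneven among the genes. Vmn1r188, Vmn1r196, Vmn1r197, Vmn1r198 and Vmn1r218 gave 81.9% of the cases at 10 counts that shared a number, and Vmn1r198, Vmn1r204 and Vmn1r210 gave 38 of the 44 that shared a row. The share was higher beside a source than elsewhere in 18 of the 19 genes by number and in 6 by row. Vmn1r202 was at 10 counts in none of its chambers that shared a number or a row and in 0.405% of the rest, and Vmn1r199 differed little by number, with 1.32% and 0.877%.

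A receptor was called in a chamber by its dominance. The called receptor was the gene with the highest count outside family C of the V2R genes (Vmn2r1 to Vmn2r7, which are co-expressed with other V2R genes), with at least 10 counts and 50% of the chamber's receptor counts. Under a second reading a receptor's count stood only if it reached a limit set by its title neighbours. This limit was 5 counts plus 3 times the 75th percentile that the gene had elsewhere in that title row. The same limit applied for that title number. Receptors that share at least 1% of their 50-base transcript words with the top gene were then also left out of the total. Both steps take counts out of the total, so this reading is not stricter for calls and can add them. In single-cell chambers it added calls for the cluster and removed none. Results with both of these corrections are given beside those from the counts as deposited.

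A gene of the cluster was called in 20 single-cell chambers (5.08%, 3.13 to 7.73) and in 32 with both corrections (8.12%, 5.62 to 11.3). All 20 had at least 50000 counts, as did all but 8 of the single-cell chambers. Among empty chambers it was called in 11 (3.38%, 1.70 to 5.98), and 8 of these 11 remained when the 63 with at least 50000 counts were left out. With both corrections it was called in 22 empty chambers (6.77%, 4.29 to 10.1). Of the 63 multiple-cell chambers 4 were called (6.35%), as were 2 of 18 putative single-cell chambers (11.1%, 1.38 to 34.7). The intervals of single-cell and empty chambers overlap, and the difference was not tested. Among the single-cell chambers called for any V1R gene, the cluster took 15.9% (9.97 to 23.4), and among the 37 empty ones it took 29.7%. With both corrections these shares were 13.6% and 15.5%.

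The 20 single-cell chambers were spread over 13 of the 33 genes, and with both corrections 32 chambers were spread over 17. The share of genes called was 39.4% (22.9 to 57.9), beside 29.3% of the other functional V1R genes (22.4 to 36.9), 31% of all functional V1R genes and 25.6% of all functional receptor genes outside family C. With both corrections it was 51.5% beside 45.1% of the other V1R genes, 46.2% of all V1R genes and 44.3% of all receptor genes. These intervals overlap, so the cluster was not set apart from other V1R genes by how many of its genes were chosen. By family, 6 of 20 V1rh genes were called in 10 chambers, 5 of 8 V1ri genes in 8 chambers, and 2 of the 5 genes without an older name in 2 chambers.

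Among the cluster's genes Vmn1r218 was called most often as deposited, in 3 single-cell chambers. It had 16.1 per 10000 in row 36, number 10, 18.3 in row 2, number 12 and 23.4 in row 33, number 20, which was 81.9%, 69.9% and 80.7% of the receptor counts there. Its next receptor was Vmn1r183 with 1.22 per 10000, Vmn2r92 with 2.42 and Vmn2r120 with 0.875. These 3 chambers were much alike in level. The gene was also on top with 13.6 in row 2, number 14, where Vmn1r38 had 5.66, and this chamber was added by the corrections. With both corrections Vmn1r198 and Vmn1r210 were called in as many chambers as Vmn1r218. Outside the cluster Vmn1r51, Vmn1r71, Vmn1r85, Vmn1r89 and Vmn1r236 were each called in 6 single-cell chambers as deposited.

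The 5 genes called in 2 chambers differed in how evenly their chambers stood. Vmn1r196 held 87.2% of receptor counts in row 25, number 7 and 74.9% in row 25, number 12. Vmn1r198 held 85.4% in row 13, number 13 and 70.9% in row 10, number 1, and with both corrections it was also called in chambers with 2.01 and 2.23 per 10000. Vmn1r199 (V1rh4, chr13:22379818-22388102) held 75.4% in row 38, number 6 (14.1 per 10000), where Vmn1r198 had 2.27, and 58.6% in row 37, number 2 (12.3), where Vmn1r179 had 2.73. In both chambers of Vmn1r199 another V1R gene was thus present at a lower level. Vmn1r210 (V1rh10, chr13:22825875-22831348) held 63.4% in row 13, number 7 (12 per 10000) and 51.9% in row 11, number 3 (9.16), where Vmn1r85 had 3.05. Vmn1r219 (V1rh13, chr13:23159312-23168154) held 68.3% in row 30, number 4 (12.1 per 10000), where Vmn1r169 had 2.72, and 54.9% in row 28, number 5 (13.5), where Vmn2r113 had 2.74. For Vmn1r210 the corrections added chambers with 5.97 and 5.03 per 10000, and none was added for Vmn1r196, Vmn1r199 or Vmn1r219.

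The 7 genes called once covered a wide range of levels. Vmn1r194 (21.6 per 10000, 79.3% of receptor counts) and Vmn1r203 (V1rh11, 17.2, 76.9%) had no second receptor at 10% of their own count. Vmn1r192 (V1ri1) was called in row 1, number 3 with only 6.37 per 10000 and 69.5%, the lowest level of the 20, since that chamber held few receptor counts in all. Vmn1r213 (V1rh6) had 12.1 per 10000 and 64.7% in row 39, number 15. Vmn1r193 (V1ri9) had 17.7 and 54% in row 4, number 16, with 5.22 of its near copy Vmn1r202. Vmn1r202 (V1ri7) had 10.3 and 55.5% in row 18, number 10, with 3.16 of the pseudogene Vmn1r-ps107 and 2.11 of Vmn1r193. Vmn1r221 had 15.2 and 52.5% in row 27, number 3, with 3 per 10000 of Vmn1r188. The last 3 of these carried a paralog of the cluster as a second signal.

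With both corrections 4 further genes were called. Vmn1r197 (V1rh21) was added in row 9, number 20 and row 35, number 13, where it had 13.1 and 8.47 per 10000 and 47.9% and 48.9% of all receptor counts, just under the limit. Vmn1r206 was added in row 29, number 8 and row 7, number 1 with 7.17 and 4.06 per 10000, Vmn1r191 in row 32, number 13 with 5.68, and Vmn1r204 in row 12, number 5 with 21.2 and 47.3%. A close copy was present beside Vmn1r191, where the pseudogene Vmn1r-ps99 had 4.23 per 10000, and 100% of the 50-base words of Vmn1r-ps99 occur in Vmn1r191. The other 16 genes were called in no single-cell chamber either way.

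Within the 20 called chambers the called gene reached a median of 15.7 per 10000 (6.37 to 28.1), and its share of the receptor counts had a median of 69.7% (order-statistic interval 58.6 to 76.9, range 51.9 to 87.2). In the chambers called for 1 of 49 other V1R genes, among them the pseudogene Vmn1r-ps144, the median share was 62% (58.2 to 65.3). Other genes of the cluster made up a median of 4.84% in the 20 chambers (0 to 22), other V1R rows 12.2% (5.27 to 28.6), and V2R and Fpr rows 9.46% (0.815 to 24). Most of the remainder was thus from receptors outside the cluster. The cluster is only 33 of the 455 receptor genes used in the calls, and it held 10.3% of the receptor counts in all single-cell chambers.

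**Figure D3:**
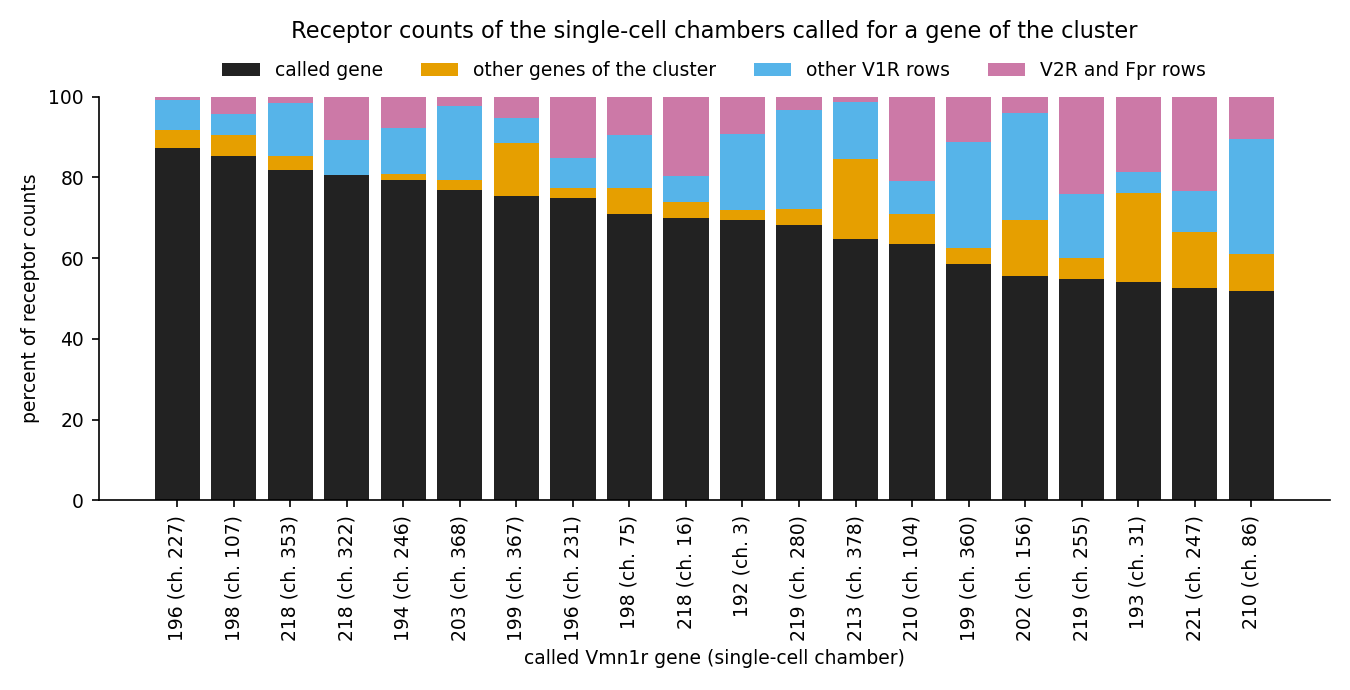
Percent of receptor counts held by the called gene (black), other genes of the cluster (orange), other V1R rows (blue) and V2R and Fpr rows (pink) in each of the 20 single-cell chambers called for a gene of the cluster, ordered by the called gene's share. The called share falls from 87.2% to 51.9%, and orange is widest for the chambers called for Vmn1r193 and Vmn1r213.

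A second receptor was counted where it had 10 counts or more and reached 10% of the called gene. One was present in 10 of the 20 chambers (50%, 27.2 to 72.8), beside 75.5% of the chambers called for another V1R gene (66.2 to 83.3). With both corrections the values were 18 of 32 (56.2%, 37.7 to 73.6) and 62.3% (55.2 to 68.9), so the distance between the classes narrowed, and it was not tested. The 10 chambers held 17 second receptor genes, of which 5 were other genes of the cluster, 5 other V1R genes and 7 V2R genes. In the single-cell chambers called for another V1R gene, the second receptors were 24 genes of the cluster, 91 other V1R genes and 30 V2R genes. The difference in this split was not tested. All 4 multiple-cell chambers called for a gene of the cluster had a second receptor. There Vmn1r194 (15.1 per 10000) stood beside 3.48 of Vmn1r196, Vmn1r199 (8.73) beside 2.64 of Vmn1r200, Vmn1r203 (8) beside 2.62 of Vmn1r233, and Vmn1r218 (14.8) beside 3.43 of Vmn1r208. The call rule itself puts the called gene ahead, so the called chambers cannot show how exclusive the genes were in all cells. A gene of the cluster was on top with at least 10 counts in 46 single-cell chambers, of which 20 were called. The number with a second receptor depended on the minimum share of a call, with 26 of 37 chambers at 30% and 1 of 9 at 70%.

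The 11 empty chambers called for the cluster fell apart by depth. The empty chambers of row 37, number 17, row 23, number 10 and row 18, number 1 had 42.8 per 10000 of Vmn1r196, 39.4 of Vmn1r198 and 29 of Vmn1r218, at totals of 89423, 78491 and 99141 and with 10.5, 13 and 7.67 per 10000 of Omp. All 3 had over 50000 counts. Per 10000 they lay above the range of the called single-cell chambers, and in plain counts within it (89 to 405). The other 8 had 23.6 to 68.8 per 10000 of the called gene at totals from 11145 to 36655. One of them, called for Vmn1r221 in row 4, number 5, had 16.8 per 10000 of Gnao1 and 5.77 of Gnai2.

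The G protein genes divided the single-cell chambers, and the calls followed this division. Gnai2 was above Gnao1 in all but 80 of them (median total 149744), and below it in these 80 (median total 147058.5). All 20 chambers called for the cluster as deposited had Gnai2 above Gnao1, with 4.25 to 10.8 per 10000 of Gnai2 and 0 to 0.435 of Gnao1. None of the 80 chambers with Gnao1 higher was called, which allows a share of up to 3.75%. By presence the classes were close, with a gene of the cluster at 10 counts in 37.6% of the former (32.2 to 43.2) and 27 of the 80 (33.8%, 23.6 to 45.2). At 50 counts they were at 15.9% (12.1 to 20.4) and 4 of 80 (5%, 1.38 to 12.3).

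Few single-cell chambers joined a high V1R count of the cluster with Gnao1. Vmn1r206 had 7.17 per 10000 in row 29, number 8, with 6.99 of Gnao1 and 0.231 of Gnai2, and this was the only chamber of the 32 called with both corrections in which Gnao1 was higher. Vmn1r218 had 17 per 10000 in row 33, number 14, with 17.8 of Vmn2r57, 5.24 of Gnao1 and 2.81 of Gnai2. Vmn1r201 had 10.1 per 10000 in row 5, number 6, with 9.83 of Vmn2r90, 6.59 of Gnai2 and 3.78 of Gnao1. In the last 2 of these chambers a V1R and a V2R gene were thus at nearly equal levels with both G protein genes present, and the number of cells in them was not tested.

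Of the 528 pairs that the 33 genes can form, 54 (10.2%, 7.78 to 13.1) were found together at 10 counts or more in at least 1 single-cell chamber. Pairs that share sequence were together more often: 21 of the 59 pairs sharing at least 1% of 50-base transcript words (35.6%, 23.6 to 49.1) against 33 of the other 469 (7.04%, 4.89 to 9.74). After the correction for title row and number the counts were 21 of 59 and 17 of 469 (3.62%), so the loss fell on pairs without shared words. By identity of their coding sequence, 5 of 14 pairs at 90% or more (35.7%), 15.1% of those from 80% to 90% and 33 of 408 below 80% (8.09%) were together. Pairs share genes and chambers, so these shares are a description and were not tested.

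The pair seen most often was Vmn1r188 with Vmn1r221, whose coding sequences are 87.1% identical and whose shared stretch is printed above. It holds under 1% of the words of either gene and was not counted among the 59. Both were at 10 counts in 7 single-cell and 5 empty chambers, 2 of the latter with under 50000 counts. In single-cell chambers the levels of Vmn1r188 and Vmn1r221 per 10000 were 30.2 and 15 in row 37, number 13, 5.94 and 6.21 in row 5, number 12, 4.95 and 10.9 in row 13, number 18, and 3 and 15.2 in row 27, number 3. They were 3.59 and 2.35 in row 29, number 13, 3.31 and 1.08 in row 39, number 5, and 1.92 and 0.89 in row 17, number 13. Either gene could be the higher, and the lesser was from 0.198 to 0.957 of the greater. After the title correction 6 of the 7 chambers remained, and 3 of the 7 had the title number 13, as did 4 of the 5 empty ones. In row 5, number 12 and row 13, number 18 another near copy was present, Vmn1r189, with 5.18 and 5.68 per 10000. Vmn1r189 is 95.6% identical to Vmn1r221 in coding sequence, and it reached 10 counts in no other single-cell chamber. The pairing was not without exception: Vmn1r221 had 73 counts and Vmn1r188 had 0 in row 40, number 9.

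The next 3 pairs were found in fewer chambers, most of which remained after the title correction. Vmn1r193 and Vmn1r202 (84.3% identical) were together in 3 single-cell chambers, with 17.7 and 5.22 per 10000, 2.11 and 10.3, and 0.884 and 4.21. Vmn1r202 was at 10 counts in no other single-cell chamber, so wherever it was present Vmn1r193 was too. Vmn1r210 and Vmn1r213 (65.8% identical over all, but with the shared run printed above) had 9.16 and 1.53, 12 and 0.793, and 0.848 and 12.1. Here the lesser gene was from 0.0663 to 0.167 of the greater, and Vmn1r213 had 88 counts with 0 of Vmn1r210 in row 35, number 14. Vmn1r210 and Vmn1r221 (88.2%) had 6.02 and 0.775, 5.97 and 1.01, and 0.672 and 10.9, and 2 of these 3 remained after the correction.

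Vmn1r206 and Vmn1r209 (95.9% identical) were together in both single-cell chambers in which either reached 10 counts, with 7.17 and 2.82 per 10000 in row 29, number 8 and 4.06 and 1.56 in row 7, number 1. The ratio of the lesser to the greater was 0.394 and 0.383, nearly the same in both. The pseudogene Vmn1r207-ps was there as well, with 3.19 and 1.69 per 10000. Vmn1r192 and Vmn1r201 (90% identical) had 1.84 and 10.1 in row 5, number 6 and 4.87 and 1.02 in row 12, number 17. The chamber called for Vmn1r192 (row 1, number 3), by contrast, had 0 counts of Vmn1r201. Where both genes of a close pair were present, transcription of the copy and reads of the shared stretch cannot be told apart in these counts.

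**Figure D4:**
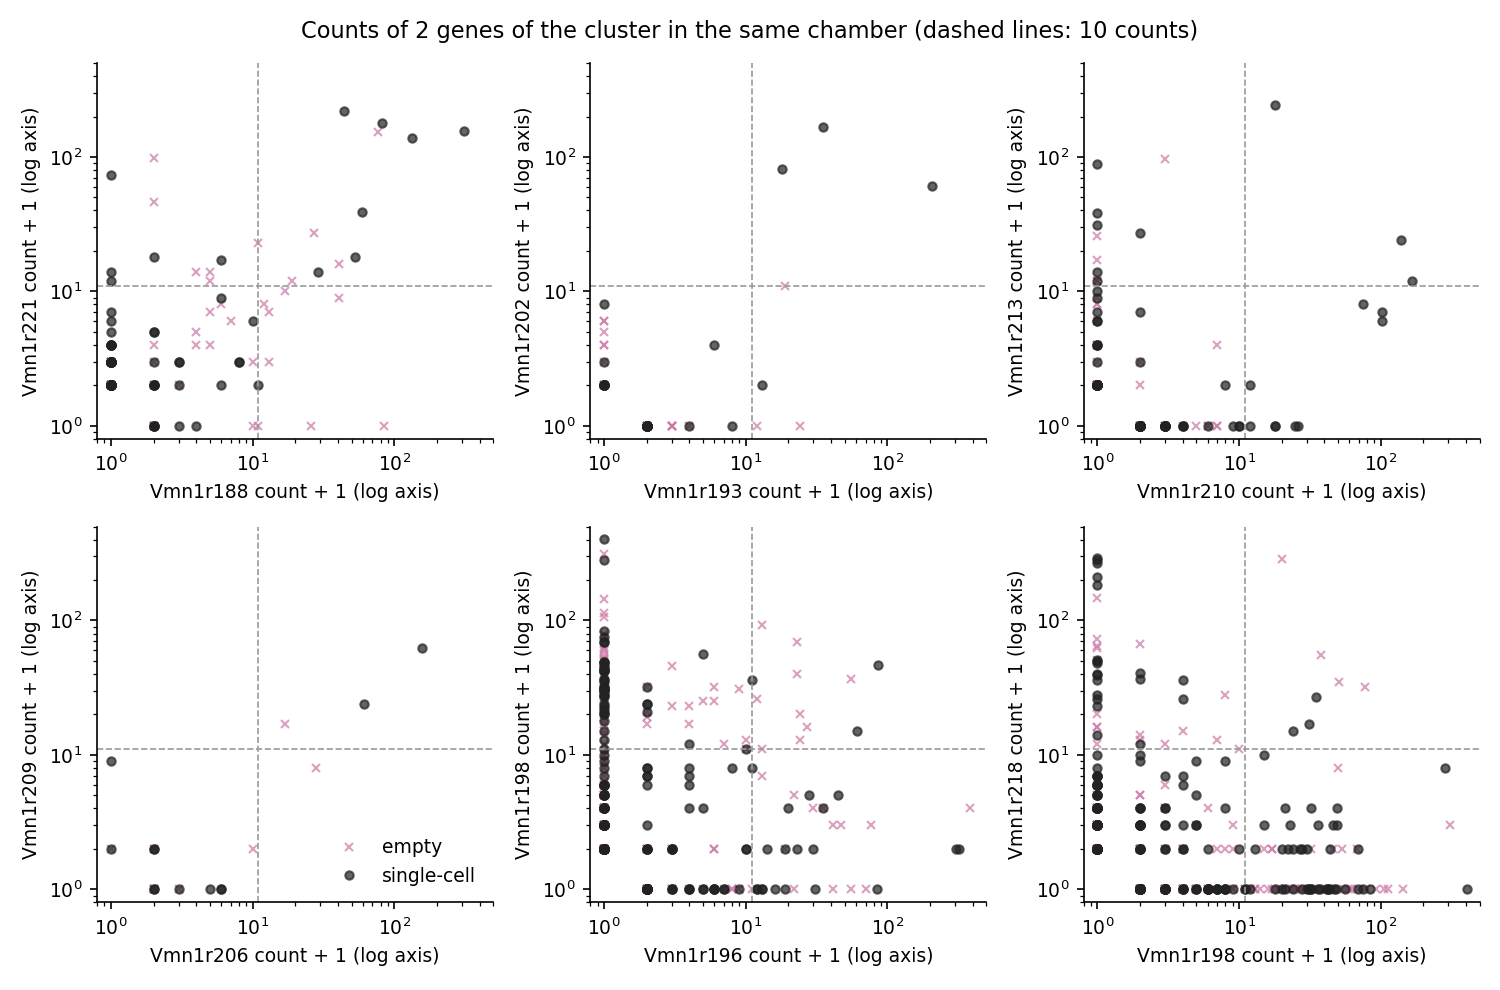
Counts plus 1 of 2 genes of the cluster in the same chamber, on log axes, for 6 of the 10 pairs most often found together, with single-cell chambers as black circles and empty chambers as pink crosses (chambers with at least 1 count of either gene). In the upper row and for Vmn1r206 with Vmn1r209 the highest chambers lie to the upper right, while for Vmn1r196 with Vmn1r198 and Vmn1r198 with Vmn1r218 the highest counts of each gene lie along the axes.

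The remaining frequent pairs shared no 50-base word and were lost in the title correction, whatever their identity. Vmn1r196 and Vmn1r198, whose last coding bases are printed above (59.8% identical over all), were together in 3 single-cell and 9 empty chambers, all 9 with the title number 17 and 8 with under 50000 counts. In single-cell chambers they had 4.16 and 0.972 per 10000, 0.609 and 2.13, and 8.6 and 4.66, always with another receptor on top. In the 4 chambers called for Vmn1r196 or Vmn1r198 the partner had 0 or 1 count. Vmn1r198 was likewise together with Vmn1r218 (86.8% identical) in 3 single-cell and 4 empty chambers, 2 of the latter with under 50000 counts. With Vmn1r221 it was together in 3 single-cell and 6 empty chambers, all 6 with the title number 13 and 5 with under 50000 counts. None of these 9 single-cell pairings remained after the correction. In the 5 chambers called for Vmn1r198 or Vmn1r218, the other of the pair had 7 counts in row 10, number 1 and 0 in the rest. Vmn1r196 and Vmn1r218 were together at 10 counts in 2 single-cell chambers, neither of which remained after the correction. One of them was a chamber called for Vmn1r218 (row 2, number 12), with 15 counts of Vmn1r196.

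Some genes were accompanied by a pseudogene of the same cluster. Vmn1r208 had 5.55 per 10000 in row 17, number 14, with 2.46 of Vmn1r-ps111, and 79% of the words of that pseudogene occur in Vmn1r208. Vmn1r223 had 2.06 in row 25, number 4 with 3.64 of Vmn1r190-ps, 48.9% of whose words it holds, and the receptor on top there was Vmn1r71 with 9.66. Counts of these genes are uncertain where reads of their copies could be split between them.

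The cells that chose a gene of the cluster were compared with those that chose another V1R gene, over listed genes of signalling, maturity, axon sorting, receptor choice, activity and other cell types. With no replicate there was no test. A gene was called higher or lower by size alone: a minimum of 50 counts over both classes, a 2-fold difference in summed counts scaled to the total without receptor genes, and a difference of 1.5-fold in that direction both in the chambers with title numbers up to 10 and in those with higher ones. Of the 59 listed genes with enough counts, 2 were higher (3.39%, beside 4.84% of all 14244 genes tested) and 6 lower (10.2%, beside 14.5%), so the listed genes were called no more often than genes at large. With both corrections 4 of 62 were higher (6.45%, beside 5.33% of all genes tested) and 3 lower (4.84%, beside 11.8%). Tenm2 and Ano2 were past the limits both ways, as was Cyp2a5 in opposite directions. For log2 ratios, sums under 3 counts were set to 3. The median log2 ratio of all genes was -0.13.

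Signalling and maturity genes were level. Gnai2 had a median of 105.5 counts in the 20 chambers of the cluster and of 115.5 in those called for another V1R gene, a ratio of summed counts of 0.944 (counting interval 0.900 to 0.988). Omp had medians of 87.5 and 93.5 and a ratio of 0.970 (0.922 to 1.02), and Gng13, a G protein gamma subunit gene, had medians of 87 and 89.5. In the transduction list 9 of 10 tested genes passed no size limit, with a median log2 ratio of 0.06, and Gnao1 was lower. The 3 mature neuron markers, the 5 tested immature neuron markers, among them Gap43 (medians of 2 and 3 counts), and the 6 activity genes passed none either. The activity genes were not all level, with ratios of 2.80 for Arc (2.05 to 3.80) and 0.345 for Nr4a1 (0.0912 to 0.925). Neither differed by 1.5-fold the same way in both ranges of title numbers. The ratios of the other activity genes were 0.776 to 1.20.

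Tenm2, which encodes a teneurin, a cell-surface protein of neuronal wiring, was higher. In the 20 chambers its counts ran from 0 to 85 with a median of 30.5, and in the others from 0 to 96 with a median of 2, so the ranges overlapped fully and the middle differed. It was at 10 counts in 16 of 20 chambers (80%, 56.3 to 94.3) and in 38 of the others (35.8%, 26.8 to 45.7), and the ratio of summed counts was 2.01 (1.84 to 2.19). The log2 ratio of 1.01 was near the 2-fold limit. It was 0.94, under that limit, in title numbers up to 10 and 1.10 in the higher ones. With both corrections the ratio of summed counts was 2.04, with 24 of 32 chambers at 10 counts (75%) against 34.3%. Among the 13 called genes, 11 had a chamber with 10 counts of Tenm2, and the exceptions were Vmn1r194 with 0 and Vmn1r221 with 6. The others were highest for Vmn1r199, with 61 and 85 counts, and Vmn1r202, with 84. High Tenm2 was not limited to the cluster: all 3 chambers called for Vmn1r84 had 65 to 96 counts, whereas the 6 called for Vmn1r85 and the 6 for Vmn1r89 had at most 5.

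Ano2, a calcium-activated chloride channel gene best known from the main olfactory epithelium, was lower. Its counts ran from 0 to 43 with a median of 3 in the 20 chambers and from 0 to 81 with a median of 23.5 in the others. It was at 10 counts in 4 of 20 (20%, 5.73 to 43.7), namely in chambers called for Vmn1r192, Vmn1r196, Vmn1r199 and Vmn1r210, and in 66 of the others (62.3%, 52.3 to 71.5). The ratio was 0.408 (0.350 to 0.472), and 0.399 with both corrections. The log2 ratio of -1.29 differed by title number. It was -0.85, under the 2-fold limit, in title numbers up to 10, which hold 14 of the 20 chambers. In the higher ones it was -5.50, but the cluster's chambers there held 0 or 1 count each and their sum was set to 3. Chambers called for the same gene could differ, as Vmn1r199 had 5 and 39 counts of Ano2 in its pair of chambers.

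**Figure D5:**
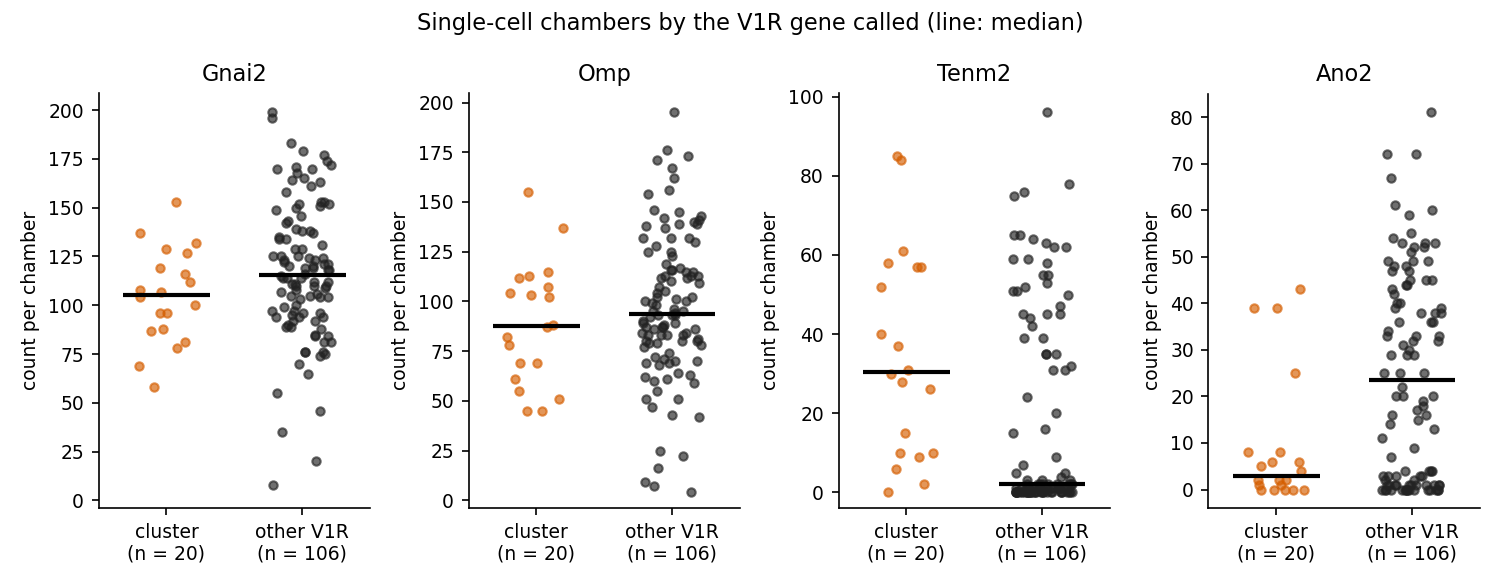
Counts per chamber of Gnai2, Omp, Tenm2 and Ano2 in the 20 single-cell chambers called for a gene of the cluster (orange) and those called for another V1R gene (black), with a line at each median. The medians of Gnai2 (105.5 and 115.5) and Omp (87.5 and 93.5) are close, Tenm2 (30.5 and 2) is shifted up and Ano2 (3 and 23.5) is shifted down, with overlap of the ranges in every panel.

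The remaining genes past the size limits rested on few chambers or few counts. Robo2, an axon guidance receptor of basal neurons, had 52 counts in the 20 chambers, of which 46 were in the chamber called for Vmn1r202, and with both corrections it was past the limits no more. In the axon sorting list Kirrel2 (medians of 65 and 41 counts, ratio 1.43) and Nrp2 (50.5 and 44.5, ratio 1.18), which guide apical axons, stayed under the 2-fold limit. Cbx5, a heterochromatin protein gene, had 73 counts against 841, and it was at 0 in 17 of the 20 chambers. Its log2 ratio of -1.04 became -0.18 with both corrections.

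The other lower genes mark other cells, and their levels were low in the cluster's chambers. The summed immune list reached at most 0.216 per 10000 in any of the 20 chambers and 10.8 in the others, and the sustentacular list 7.19 and 35.8, with medians of 0 and 0, and 1.4 and 0.652. Cd74 had 4 counts in the 20 chambers against 200 in the others (log2 ratio -3.16). Cyp2a5 had 2, set to 3 for its log2 ratio of -3.21, and Gnao1 had 33 against 437 (-1.24). The endothelial markers summed to at most 1 count in the 20 chambers, and Ptprc and Cdh5 were at 0 in both classes. With both corrections Cd74, Cyp2a5 and Gnao1 turned to the higher side, with log2 ratios of 1.12, 1.44 and 0.25. A single chamber held 59.4% of the Cd74 counts, 55.3% of the Cyp2a5 counts and 75.9% of the Gnao1 counts of that class, the last in row 29, number 8, added for Vmn1r206. In the sustentacular list, 2 of the 5 genes were then higher and the median log2 ratio was 1.13: beside Cyp2a5 this was Krt8, a keratin gene, with a ratio of 2.48 (2.24 to 2.74) and 10 counts in 5 of the 32 chambers. The ratio of Cbr2 was 2.19, without passing the limit in both ranges of title numbers. The part of other cells in the ratios was not tested.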

How the data were processed

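Single cells of the mouse vomeronasal epithelium were measured by 3′ end sequencing in 800 chambers. The authors deposited 1 table of whole-number counts of molecules per gene and chamber, not normalized. Per the submitters' processing notes STAR 2.5.4b, featureCounts 1.6.1, SAMtools 1.5, UMI-tools 0.5.3 and bcl2fastq were used with GRCm38. The name of the deposited table refers to pseudogenes and to fractional counting of multimapping reads, though its values are whole. The exact rule for reads of near-identical genes, and the use of strand, are not given in the sources used here. The table has 1 column of no sample, which was not used.

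Groups are the chamber states of the labels: a single cell in 394 chambers, a putative one in 18, multiple cells in 63, and none in 325. As deposited, 126 single-cell chambers were called for a V1R gene, 20 for the cluster and 106 for others, and with both corrections 32 and 204. Levels per 10000 are counts divided by the total of the chamber. Library depth was 4501 to 319287 counts. No doublet caller was run, since the labels set multiple-cell chambers apart. With 1 chip and no link from chambers to pools no p-value was computed. Exact 95% Clopper-Pearson intervals for shares and conditional binomial intervals for ratios cover counting error only. The cluster's genes and the gene lists were chosen with earlier results of these data known. Described one by one were genes called in at least 2 single-cell chambers, genes called in 1 as deposited, the 3 with the highest single count, the genes of the 10 pairs most often together, and those never at 10 counts. Vmn1r191, Vmn1r201, Vmn1r204, Vmn1r208, Vmn1r216 and Vmn1r223 were named after their values were seen. Other genes came from fixed lists, and 1 listed gene with its list is not reported here. Numbers without a row of their own in the cluster's range (Vmn1r190, Vmn1r207, Vmn1r215) were not analysed here.

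Paralogs were compared by shared 50-base transcript words and by global alignment of the longest coding sequence (match 1, mismatch -1, gap -5 and -1) in GENCODE vM21. Calls, without and with the title correction, and the intervals of ratios were tested on simulated data. The pairs and the shared-sequence correction were not. Python 3.11.15, numpy 2.4.6, pandas 2.3.3, scipy 1.17.1, Biopython 1.88 and matplotlib 3.10.9 were used. The alternatives were corrections for title neighbours and shared sequence, other count and share limits, 1024 identifiers, and parts of the chip. The limit of 50000 counts per chamber was added after seeing the data.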

Additional observations from a re-analysis of the deposited data

Results flagged for a closer look

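The putative single-cell chambers are outside the main calls. A gene of the cluster was called in 2 of the 18 chambers (11.1%), beside 3.38% of the empty chambers. With both corrections it was again called in 2 of the 18, beside 6.77% of the empty chambers. Vmn1r196 had 17.8 per 10000 counts and 65.2% of the receptor counts in the putative single-cell chamber of row 15, number 12, where its paralog Vmn1r189 had 1.89. Vmn1r198 had 14.2 per 10000 and 64.5% in that of row 10, number 17, where Vmn1r218 had 0.76. Both levels lay within the range of 6.37 to 28.1 in the called single-cell chambers. The difference from empty chambers was not tested.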

How the results depend on the processing

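Of 64 alternatives of the main results, 42 left the value within 1.5 times or within its interval and 22 moved it. The 20 called single-cell chambers became 32 with both corrections, 37 at a minimum share of 30% and 9 at 70%, and the 13 called genes became 20 at 30% and 6 at 70%. The median share of 69.7% became 80.2% with the title correction, 85.7% with both, 52.5% at 30% and 79.3% at 70%. The 10 chambers with a second receptor became 16 with the title correction, 18 with both, 26 at 30% and 1 at 70%, then 6 when a second receptor needed 20% of the top count and 17 when it needed 5 counts and 5%. The 11 called empty chambers became 22 with the title correction and with both, 25 at 30% and 4 at 70%. The 10.2% of pairs found together became 20.3% at 5 counts and 3.98% at 20. The 8 listed genes past the size limits became 17 in title numbers 11 to 20 alone, where only 6 of the 20 chambers lie. Of 40 alternatives for single listed genes 3 reversed, all with both corrections: the log2 ratios of Cd74 (-3.16), Cyp2a5 (-3.21) and Gnao1 (-1.24) became 1.12, 1.44 and 0.25. In title numbers up to 10 alone the log2 ratio of Ano2 was -0.85, and with both corrections that of Cbx5 was -0.18. Beyond fewer chambers and other limits, the cause was not tested. Minima of 5 or 20 counts for a call left the 20 chambers and 13 genes as they were. No paired analysis was possible because the labels number no replicates and no result comes from a test between groups. Depth limits what an absent gene means: 0 single-cell chambers allow a share of up to 0.761%, and 0 of the 80 with Gnao1 higher up to 3.75%.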
